A study of Saccharomyces cerevisiae and Neurospora crassa and Schizosaccharomyces pombe with 13 samples.

Results

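The annotation of the filamentous fungus Neurospora crassa that accompanies the nucleosome study holds 456 genes whose 5' untranslated region (5' UTR) spans 1000 bp or more. They make up 4.69% of the 9730 annotated genes and 5.96% of the 7657 genes that have any 5' UTR. The genes were chosen by the length of the 5' UTR itself, measured in exonic bases before the coding region of the longest transcript. That length, and everything that follows from it, is therefore given as a description. They were set against the 4637 genes with a 5' UTR of 100 to 500 bp, referred to here as genes with an ordinary 5' UTR.

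The study mapped nucleosomes in 3 fungi by MNase-seq, which uses micrococcal nuclease to digest linker DNA, and the fragments shielded by nucleosomes are sequenced. Of its 13 libraries in 8 groups, 2 came from wild-type N. crassa, made with a shortened protocol from asexual spores. Those spores had grown for 3.5 h, more than 70% had germinated, and they were fixed with 1% formaldehyde for 10 min. Their reads and footprints were not analysed here, so every value comes from the gene models and no library enters any comparison.

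A 5' UTR is the stretch of a messenger RNA that the ribosome scans before it reaches the start codon. Long ones have room for upstream open reading frames, introns and more than 1 transcription start, all of which can alter how much protein a transcript yields. In N. crassa the leaders of arg-2, an arginine synthesis gene, and cpc-1, the activator of amino acid synthesis, are textbook cases of control by upstream open reading frames. Nucleosome profiles are usually aligned on the transcription start, because the first nucleosomes of a gene are ordered from there and not from the start codon. The annotation gives identifiers without gene symbols, so the genes are named by identifier and no function is given for them.

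Gene models are not replicated, so the 7 sequences of the annotation, numbered 1 to 7, served as units. A median or share was computed on each of them, and the SD given shows how sequences vary and not how precisely anything was measured. The test was an exact permutation test that flips the sign of each sequence's difference (two-sided), and with 7 sequences it cannot give a p below 0.0156. All adjusted p-values are Benjamini-Hochberg values over 8 tests, and values under 0.05 are taken as differences.

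The long 5' UTRs formed the upper tail of a continuous distribution. They measured 1204 bp at the median, with quartiles of 1093.8 and 1451.2 bp and a range of 1001 to 9173 bp, against 263 bp at the median of the ordinary class. A length of 1500 bp or more was reached by 103 of them, 2000 bp or more by 22 and 3000 bp or more by 6. Together they held 617935 of the 3144834 annotated 5' UTR bases, which is 19.6%. The shortest were NCU00073 with 1001 bp and NCU02858 with 1002 bp, and the genes just under the limit were NCU00728 and NCU01271 with 999 bp each. The limit therefore separates genes that differ by a few bases.

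**Figure D1:**
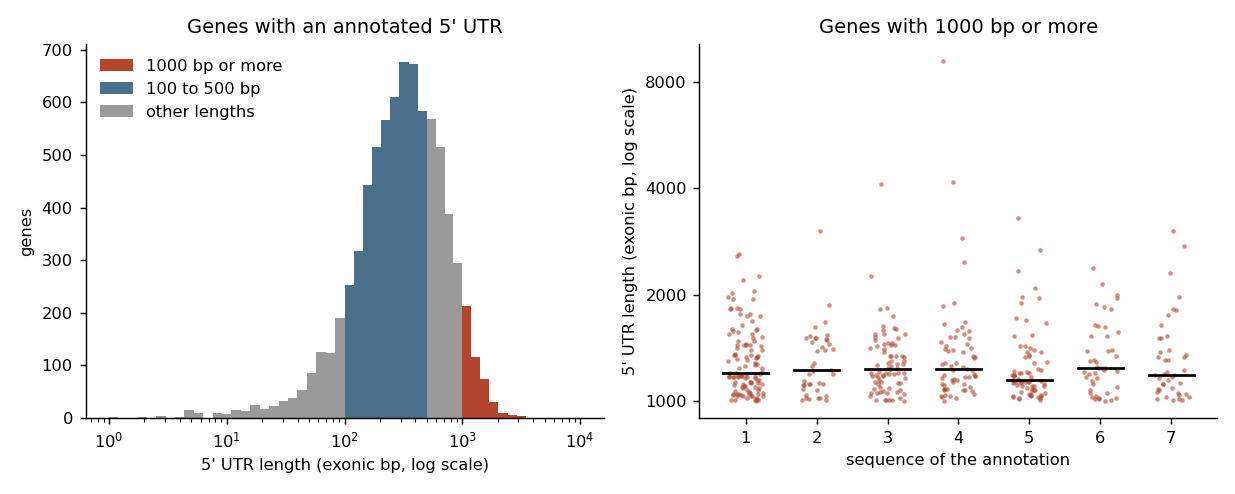
Left, number of genes by 5' UTR length in exonic bp on a log axis, with the genes of 1000 bp or more in red, those of 100 to 500 bp in blue and other lengths in grey. Right, the 5' UTR length in bp (log axis) of each of the 456 genes on the 7 sequences, with the sequence median as a bar; the medians lie between 1152 and 1244 bp, and NCU09637 stands at 9173 bp.

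Long 5' UTRs occurred on every sequence at a like frequency. They made up 4.63% ± 0.762 of a sequence's genes (SD, n = 7), the lowest share being 3.89% on sequence 2, the median 4.55% and the highest 6.14% on sequence 3. Sequence 1 had the largest number, 117, and sequence 2 the smallest, 40. The sequence medians of their length lay between 1152 and 1244 bp. Transcription ran on the plus strand in 223 and on the minus strand in 233.

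The 5' UTR was a large part of these transcripts. It took a median of 34.8% of the exonic bases, against 13.2% in genes with an ordinary 5' UTR. In 144 of the long-UTR genes (31.6%) the 5' UTR was longer than the coding region, which held for 127 of the ordinary class (2.74%). It also exceeded the 3' UTR in 440 genes (96.5%), against 1805 genes of the ordinary class (38.9%).

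The longest 5' UTR belonged to NCU09637, on the minus strand of sequence 4 at positions 8110 to 19545. Its 9173 exonic bp precede a coding region of 1290 bp, and the only intron before the start codon is 59 bp long. A second transcript starts at the same base and has a 5' UTR of 9074 bp. The whole of NCU09638, a gene on the opposite strand at 11075 to 19163 with 7884 bp of coding sequence and no annotated UTR, lies between that transcript start and the start codon. The stretch before the start codon of NCU09637 is thus, over 8089 bp including the intron, antisense to another gene model.

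NCU16848, at 4389473 to 4394816 of sequence 4 (plus strand), came next with 4161 bp before 564 bp of coding sequence. Its second transcript starts 3107 bp further on, the widest spread of starts among the 456 genes, and has a 5' UTR of 1115 bp. The upstream start lies inside NCU07316, which is transcribed in the opposite direction. The 4118 bp of NCU00144, at 2775602 to 2782540 of sequence 3 (plus strand), enclose all of NCU00143, an opposite-strand model with 468 bp of coding sequence and no UTR.

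The other genes of the top 5 had no other gene in their 5' UTR. NCU07784, at 308667 to 314862 of sequence 5 (plus strand), is a single exon with 3305 bp of 5' UTR and 2391 bp of coding sequence. NCU08399, at 1080398 to 1091850 of sequence 7 (plus strand), combined 3033 bp of 5' UTR with 7701 bp of coding sequence, the longest coding region of the class. It is preceded by 40799 bp without a gene. The same 5' UTR is interrupted by introns of 98 and 57 bp.

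**Figure D2:**
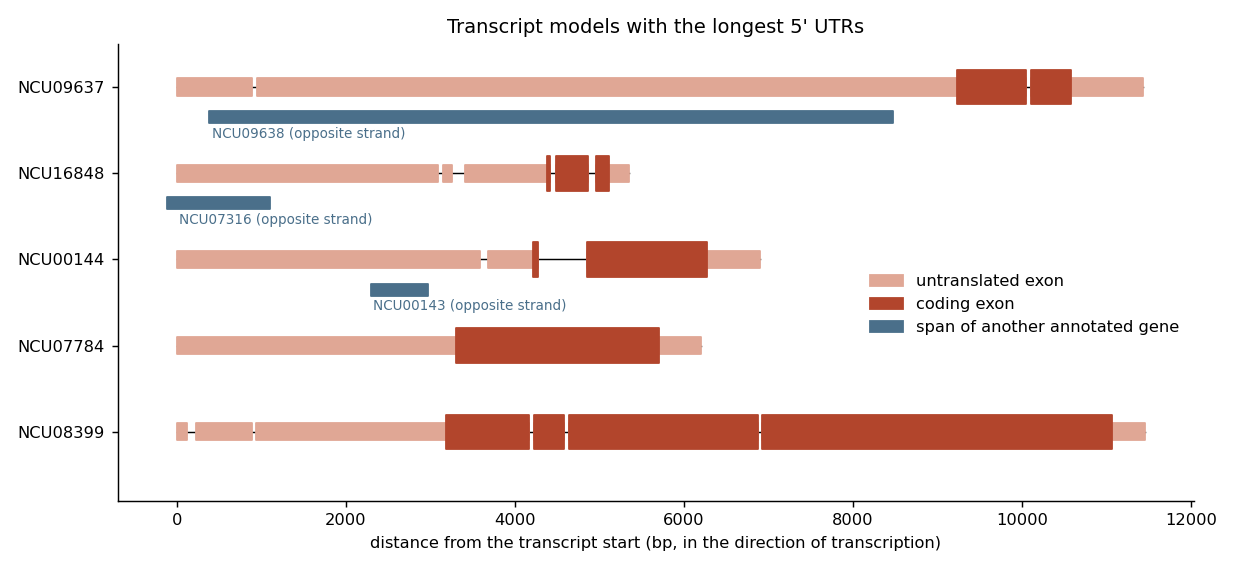
Transcript models of the 5 genes with the longest 5' UTRs, drawn to scale in bp from the transcript start, with untranslated exons pale, coding exons dark and other annotated genes that overlap the 5' UTR in blue. Opposite-strand genes lie in the 5' UTRs of NCU09637, NCU16848 and NCU00144, and none lies in those of NCU07784 and NCU08399.

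On the remaining sequences the longest 5' UTRs were 2606 bp on sequence 1 (NCU00717, plus strand, 7443977 to 7450085), 3026 bp on sequence 2 (NCU05338) and 2376 bp on sequence 6 (NCU05511, plus strand, 1661638 to 1665463). NCU00717 has 1 transcript, and its single 5' UTR intron of 112 bp comes after 1130 exonic bases. NCU05511 encloses the coding region of NCU17101 on the opposite strand.

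Introns were common in long 5' UTRs, at a number per kb that differed from that of ordinary ones by less than the spread between sequences. An intron lay before the start codon in 157 of the long-UTR genes (34.4%), against 401 of those with an ordinary 5' UTR (8.65%). Most of the 157 had 1 intron, in 114 genes. Another 39 had 2, 3 had 3 and 1 had 4. Counted per kb of exonic 5' UTR, the sequences averaged 0.325 ± 0.0638 introns in the long class and 0.335 ± 0.026 in the ordinary class (SD, n = 7 each). The difference of -0.0108 ± 0.0756 (SD, n = 7) had either sign, with the long class higher on 3 of 7 sequences. Since length was the criterion of choice, these densities were not tested.

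The introns themselves did not differ detectably in size. At the median, the 205 introns of long 5' UTRs were 102 bp long, against 100 bp for the 424 introns of ordinary ones. By sequence the medians were 106 ± 15.7 bp and 101 ± 12.8 bp (SD, n = 7 each). The difference of 5.07 ± 24.7 bp was positive on 4 of 7 sequences and did not pass the exact permutation test (p = 0.719, adjusted p = 0.719). The difference per sequence reached from -22.5 to 55 bp. Introns of 300 bp or more numbered 29 (14.1%) in the long class and 45 (10.6%) in the ordinary class. Introns inside the coding region were shorter in both, with medians of 65 bp in long-UTR genes and 73 bp in genes with an ordinary 5' UTR.

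Within the long 5' UTRs, introns were fewest next to the transcript start. Of the 205 introns, 20 (9.76%) lay in the first 20% of the exonic 5' UTR, and 49, 43, 40 and 53 lay in the following steps of 20%. The median intron had 604 exonic bases between it and the coding region, and 42.4% lay within the last 500 bases. NCU07787 on sequence 5 had the largest number, with introns of 303, 161, 64 and 61 bp in a 5' UTR of 1353 bp. NCU05721, on the minus strand of sequence 3, had the longest, 1873 bp at positions 631539 to 633411. Its start codon therefore lies 3519 bp from its transcript start although the exonic 5' UTR is 1586 bp long.

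**Figure D3:**
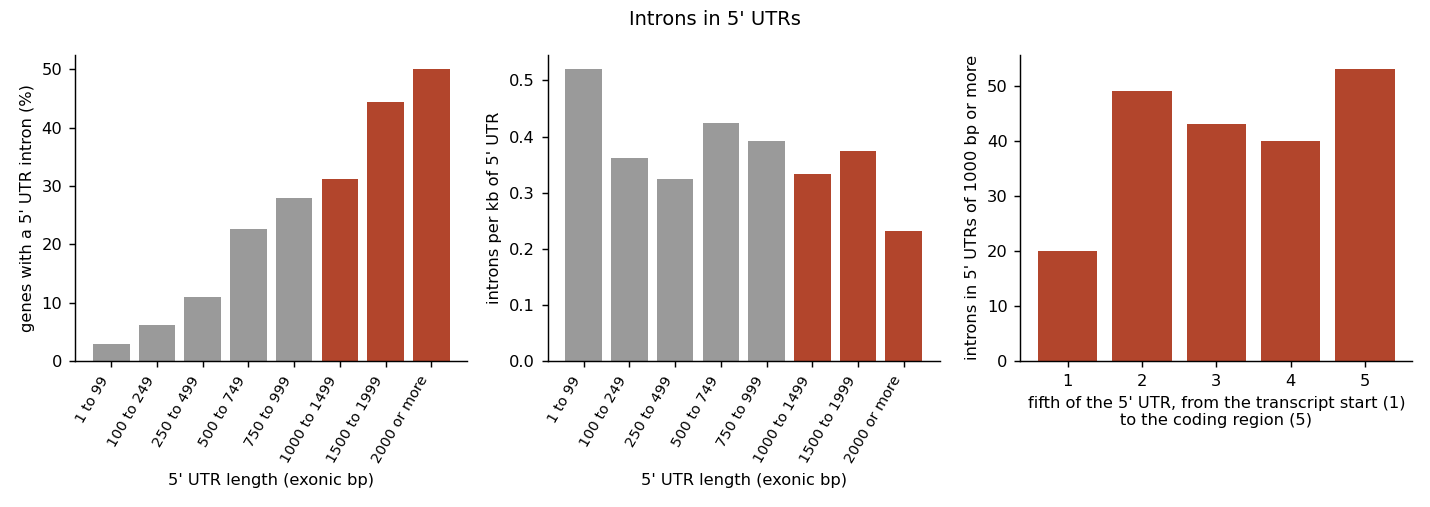
Left and centre, percent of genes with an intron in the 5' UTR and introns per kb of exonic 5' UTR, by 5' UTR length class, with classes of 1000 bp or more in red. The share climbs from 3% to 50% across the classes while the number per kb stays between 0.231 and 0.52. Right, number of introns in successive steps of 20% of the 5' UTRs of 1000 bp or more, lowest (20) in the step at the transcript start.

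The 157 genes with an intron had a median coding length of 1749 bp and a median 3' UTR of 525 bp, against 1761 and 537 bp in the 299 without. Their exonic 5' UTR was longer, 1332 bp against 1185 bp. Several transcripts were annotated for 39.5% of those with an intron and 22.1% of those without. These splits were not tested.

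More of the long-UTR genes had alternative transcripts. The annotation gives several transcripts for 128 of them (28.1%), against 386 of the ordinary class (8.32%), and several transcription starts for 74 (16.2%), against 224 (4.83%). Several transcripts were also annotated for 16.5% of genes at 500 to 749 bp of 5' UTR and 24.9% at 750 to 999 bp. At 1000 to 1499 bp the share was 26.6%, so it rose by degrees towards the limit. The choice of the longest transcript favours genes with several, so the excess was not tested. Among genes with several transcripts, the share with several starts was 57.8% in the long class and 58% in the ordinary class. The outermost starts lay a median of 742 bp apart (38 to 3107 bp) in the long class, against 140 bp in the ordinary class. A shorter 5' UTR leaves less room for such a spread, so this contrast was not tested either.

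Every annotated transcript carried the long 5' UTR in 387 of 456 genes (84.9%). These include the 328 genes with 1 transcript, for which the choice of genes fixes this. Among the 128 genes with several transcripts it held in 59. In the other 69 the shortest 5' UTR had a median of 528 bp and was between 0 and 986 bp. It was under 500 bp in 34, and in 14 a transcript had no 5' UTR at all. The 69 comprise 52 genes with several starts and 17 whose transcripts share 1 start and differ in splicing or in the coding start. NCU00651 on sequence 1 is one of 8 genes with 4 transcripts, and these differ in their starts. Their 5' UTRs measure 1024, 959, 877 and 698 bp, the first alone over the limit. The last has 3 introns before the start codon and the others have 2, so the starts alone do not set these lengths. For such genes the distance between start site and start codon depends on the transcript used.

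Long-UTR genes encoded longer coding regions. The sequence medians of coding length were 1563 bp at the lowest, 1765.5 bp at the middle and 2163 bp at the highest, against 1170, 1260 and 1314 bp in genes with an ordinary 5' UTR. The classes did not overlap on any pair of sequences. The mean was 1820.8 ± 198 bp in long-UTR genes and 1255.1 ± 46 bp in genes with an ordinary 5' UTR (SD, n = 7 each), a ratio of 1.45. The difference of 566 ± 207 bp was positive on 7 of 7 sequences (exact permutation test, p = 0.0156, adjusted p = 0.025). It was 350 ± 216 bp when only 5' UTRs of 1500 bp or more were used. The shortest coding region of the class was that of NCU16405 on sequence 1, with 174 bp after a 5' UTR of 1045 bp.

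Their 3' UTRs, the untranslated stretch after the stop codon, were longer as well. The sequence medians were 424, 540 and 625 bp at the lowest, middle and highest sequence in long-UTR genes, against 322, 335 and 351 bp in genes with an ordinary 5' UTR. Again the classes did not overlap. The means were 513 ± 76.2 bp and 334 ± 9.64 bp (SD, n = 7 each), and the difference of 179 ± 71.6 bp was positive on 7 of 7 sequences (exact permutation test, p = 0.0156, adjusted p = 0.025). Among genes with 1000 to 2000 bp of coding sequence the difference was 192 ± 91.2 bp, a comparison chosen after the data were seen. Coding lengths were not matched between the classes within that band. The longest 3' UTR of the class, 2677 bp, belonged to NCU05347 on sequence 2, whose coding region is 429 bp long and whose 5' UTR is 1119 bp long in all 3 transcripts.

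A 3' UTR was annotated for nearly all genes of both classes. The share was 98.9% ± 1.19 in long-UTR genes and 96.7% ± 0.691 in genes with an ordinary 5' UTR (SD, n = 7 each). The difference of 2.24 ± 1.83 percentage points was positive on 6 of 7 sequences and did not pass after adjustment (exact permutation test, p = 0.0469, adjusted p = 0.0536). Without sequence 5, the exception, it was 2.7 points and passed (exact permutation test, adjusted p = 0.0417). Without any 1 of the other sequences it did not pass (exact permutation test, adjusted p of 0.0714 to 0.107). All 456 genes had a start codon and a stop codon record.

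Introns within the coding region were slightly sparser. Long-UTR genes had 0.881 ± 0.0464 coding introns per kb of coding length, against 1.01 ± 0.0868 per kb in genes with an ordinary 5' UTR (SD, n = 7 each). The difference of -0.133 ± 0.114 per kb was negative on 6 of 7 sequences, and the ranges overlapped (exact permutation test, p = 0.0312, adjusted p = 0.0417). The direction was the opposite in the only band of coding length examined, and a dependence on coding length was not tested. Among genes with 1000 to 2000 bp of coding sequence, long-UTR genes had 0.257 ± 0.108 more introns per kb (adjusted p = 0.0312, exact permutation test), likewise a comparison chosen late. Without any 1 of sequences 1 to 6 the overall difference no longer passed (exact permutation test, adjusted p of 0.0714 to 0.0833). The median gene had 2 coding introns in the long class and 1 in the ordinary class.

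**Figure D4:**
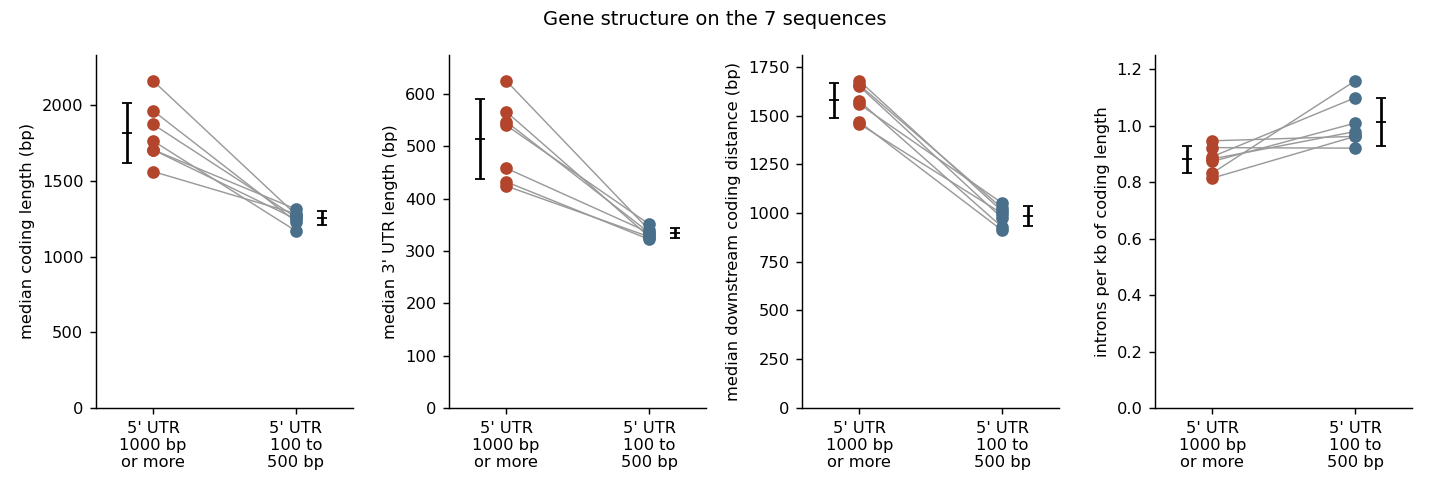
Sequence values of long-UTR genes (red) and genes with a 5' UTR of 100 to 500 bp (blue) for median coding length, median 3' UTR length and median downstream coding distance, all in bp, and for coding introns per kb of coding length. Grey lines join the classes on 1 sequence and the black bars are the mean ± SD over 7 sequences; the first 3 quantities do not overlap between the classes, and the last one does.

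Across classes of 5' UTR length these quantities changed by degrees, with no step at 1000 bp. The median coding length was 1137 bp for 5' UTRs of 1 to 99 bp, 1326 bp for 250 to 499 bp, 1719 bp for 750 to 999 bp and 1815 bp for 1000 to 1499 bp. It was 1764 bp in the 81 genes of 1500 to 1999 bp and 1294.5 bp in the 22 genes of 2000 bp or more. The median 3' UTR went through 255, 348, 456 and 529 bp in the first 4 of those classes, and was 538 and 497 bp in the last ones. The genes with the very longest 5' UTRs thus had a lower median coding length than the rest of the class, although NCU08399 with its 7701 bp is among them.

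Long-UTR genes also stood further from their neighbours. From the coding end to the coding region of the next gene downstream, the sequence medians were 1457.5, 1575 and 1679 bp at the lowest, middle and highest sequence, against 911, 997 and 1051 bp in genes with an ordinary 5' UTR. The classes did not overlap. The means were 1578.3 ± 90.2 bp and 985 ± 50.9 bp (SD, n = 7 each), with a difference of 593 ± 85.2 bp on 7 of 7 sequences (exact permutation test, p = 0.0156, adjusted p = 0.025). This distance contains the gene's own 3' UTR. The gap after the gene span had a pooled median of 666 bp in long-UTR genes and 278 bp in the ordinary class, which was not tested. With means in place of medians the difference in downstream coding distance was 1274.7 ± 1888.2 bp and was positive on 6 of 7 sequences.

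On the upstream side the distance between coding regions was 3096.9 ± 451 bp in long-UTR genes and 1235.6 ± 40.7 bp in genes with an ordinary 5' UTR (SD, n = 7 each). It contains the 5' UTR, so its difference of 1861.4 ± 440 bp is partly set by the choice of genes and is given as a description. The stretch before the transcript start does not contain the 5' UTR, and it too was longer. From the transcript start to the nearest gene upstream, the sequence medians averaged 1421.1 ± 514 bp in the long class and 558 ± 69.4 bp in the ordinary class (SD, n = 7 each). The difference of 864 ± 497 bp was positive on 7 of 7 sequences. By 5' UTR length the pooled median was 476 bp for 100 to 249 bp and 620 bp for 250 to 499 bp. It was 854 bp for 500 to 749 bp and 1089 bp for 750 to 999 bp, just below the limit. Among long-UTR genes it was 1227 bp for 1000 to 1499 bp and 2129 bp for 1500 to 1999 bp. In the 22 genes of 2000 bp or more it was 580 bp, between the values for 100 to 249 bp and 250 to 499 bp. A stretch of 1000 bp or more without a gene preceded 58.6% of long-UTR genes and 33.1% of genes with an ordinary 5' UTR.

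The gene-free stretch was longer than in the ordinary class before both kinds of neighbour. Before a tandem neighbour, one on the same strand, its median was 1666 bp in 219 long-UTR genes and 580 bp in 1797 genes with an ordinary 5' UTR. Before a divergent neighbour, one that is transcribed away from the gene, it was 1332 bp in 205 and 558 bp in 2738 genes. The longest upstream coding distance of the class was 112873 bp, before NCU08696 on sequence 2, and the shortest was 128 bp, before NCU05041 on sequence 6, whose 5' UTR encloses NCU17145 on the opposite strand.

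**Figure D5:**
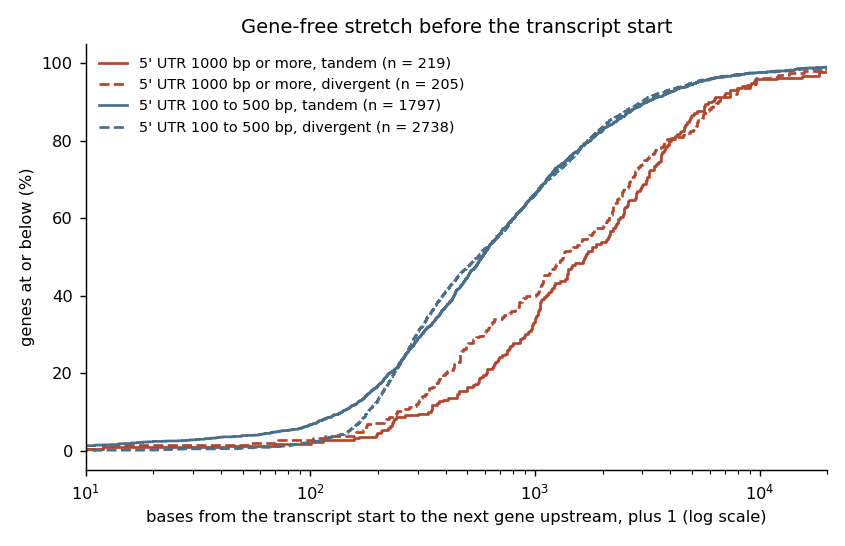
Cumulative percent of genes by the number of bases from the transcript start to the next gene upstream (plus 1, log axis), for long-UTR genes (red) and genes with a 5' UTR of 100 to 500 bp (blue), with tandem upstream neighbours as solid and divergent ones as dashed lines. Genes whose start lies inside another gene are not drawn; the red curves lie to the right over most of the range, with medians of 1666 and 1332 bp, against 580 and 558 bp for the blue ones.

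Divergent neighbours were less frequent before long-UTR genes than before genes with an ordinary 5' UTR. By coding region, the upstream neighbour was divergent for 54.3% ± 2.8 of them, against 60.5% ± 1.97 of genes with an ordinary 5' UTR (SD, n = 7 each). The difference of -6.24 ± 3.76 percentage points was negative on 7 of 7 sequences (exact permutation test, p = 0.0156, adjusted p = 0.025), although the ranges of 50 to 57.8% and 57.1 to 62.7% overlapped. Over all annotated genes the share was 54.9% ± 2.13, which is nearer to the long-UTR genes than to the ordinary class. The direction did not hold for 5' UTRs of 1500 bp or more, where the difference was 1.83 points (exact permutation test, adjusted p = 0.696). It was -10.7 points without the genes whose 5' UTR overlaps another coding region, an alternative chosen after the data were seen. All 41 long-UTR genes left out there have a divergent neighbour, so their removal lowers the share by construction, to 204 of 415 (49.2%). By 5' UTR length the pooled divergent share was 50.7% for 1 to 99 bp, 60.3% for 100 to 249 bp and 61.1% for 250 to 499 bp. It was 58.9% for 500 to 749 bp and 54.3% for 750 to 999 bp. Among long-UTR genes it was 51.3% for 1000 to 1499 bp, 61.7% for 1500 to 1999 bp and 63.6% for 2000 bp or more. The downstream neighbour was convergent, transcribed towards the gene, for 51.1% of long-UTR genes and 58.7% of the ordinary class. Over all annotated genes that share was 55.2%, and these pooled shares were not tested.

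Some long 5' UTRs ran across other gene models. The stretch between transcript start and coding region overlapped another gene in 52 long-UTR genes (11.4%), against 150 genes with an ordinary 5' UTR (3.23%). In 41 (8.99%) it overlapped the coding region of the other gene, against 23 (0.496%) in the ordinary class. A longer stretch has more room to overlap, so these shares were not tested. They were 5.67% for 5' UTRs of 1000 to 1499 bp, 13.6% for 1500 to 1999 bp and 45.5% for 2000 bp or more. The 41 genes had a median 5' UTR of 1510 bp, against 1198 bp in the other long-UTR genes. The transcript start itself lay inside another gene in 32 genes (7.02%), of which 30 on the opposite strand, against 99 (2.14%) with 73 on the opposite strand.

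The gene models crossed in this way were short and mostly without UTRs. In all 41 cases the overlapped gene lay on the opposite strand, and the overlap with its coding region had a median of 572 bp (31 to 8089 bp). In 23 cases the whole coding region of the other gene lay within the 5' UTR stretch, and in 20 its whole span did. Of the 41 overlapped genes, 30 (73.2%) had no 5' UTR, against 21.3% of all annotated genes, and 28 had neither UTR. Their coding length had a median of 462 bp, from 231 bp to the 7884 bp of NCU09638. The median over all annotated genes was 1260 bp, and these contrasts were not tested. The strand of the transcript evidence behind these models was not stated in any source used here, and its part in the overlaps was not tested.

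Whether the neighbour had a UTR on the facing side was counted for all long-UTR genes. A divergent upstream neighbour had no 5' UTR in 61 of 245 cases (24.9%), against 308 of 2811 (11%) for genes with an ordinary 5' UTR. The crossed gene models make up 30 of the 61. Without the genes whose 5' UTR overlaps another coding region, a count added after the data were seen, the shares were 31 of 204 (15.2%) and 296 of 2798 (10.6%). A tandem upstream neighbour had no 3' UTR in 48 of 211 cases (22.7%), against 311 of 1823 (17.1%). Over all annotated genes, 21.3% had no 5' UTR and 19.9% had no 3' UTR. The ranges over sequences overlapped between the classes in each of these counts, and the shares were not tested.

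Long 5' UTRs faced each other at a share near that over all annotated genes. The upstream neighbour was a divergent long-UTR gene for 14 of the 456 (3.07%), against 102 genes with an ordinary 5' UTR (2.2%). Over all 9730 annotated genes it was so for 245 (2.52%). The 14 form 7 pairs, and 4 of these overlapped. In the deepest overlap, NCU05338 and NCU05340 on sequence 2 shared 2935 bp. NCU05338, on the minus strand at 1366019 to 1369922, has 3026 bp of 5' UTR before 312 bp of coding sequence. NCU05340, on the plus strand at 1366988 to 1370144, is a single exon with 1225 bp of 5' UTR and 1131 bp of coding sequence, all of which lies within the 5' UTR of its partner. The most distant of the pairs, NCU07787 and NCU07788, was 9667 bp apart. Another 14 long-UTR genes had a long-UTR gene as their tandem upstream neighbour.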

How the data were processed

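Per the labels, the study made MNase-seq libraries; the submitters' processing notes name CASAVA, Bowtie2 and the builds sacCer3, R64 and ASM294v2. The file analysed is the N. crassa gene annotation that the authors deposited (81022 records, 10785 transcripts). Its values are start and end positions of exon, coding and codon records in bp, counted from 1; how transcript ends were set was not stated in any source used here. Depth does not apply, since it holds no reads.

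For each gene the longest transcript by exonic bases was taken, with ties by transcript identifier. The coding span covered all its coding and codon records. Neighbours for coding distances and orientation were those next by coding span. The gap before a start ran to the nearest gene span upstream and was 0 inside a gene. The genes and lists were chosen with earlier results of these data known. The 8 tests include the upstream coding distance, which the rule partly fixes, so its p also enters the adjusted p-values of the others.

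Named genes are extremes: longest 5' UTRs overall and by sequence, most or longest introns, extreme coding, 3' UTR and upstream distances, most transcripts, widest starts, deepest overlaps, the genes nearest the limit, and the divergent pair with the shortest gap. Alternatives changed the limits, comparison class, transcript, filters, mean or median, and left out each sequence. No gene identifier matched a table of symbols, and no N. crassa sequence was used. Python 3.11.15, NumPy 2.4.6 and matplotlib 3.10.9 were used; the reading of gene models was tested on simulated data (2800 genes on 7 sequences, 0 read wrongly).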

Additional observations from a re-analysis of the deposited data

Results flagged for a closer look

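The difference in median 5' UTR intron length between long-UTR genes and genes with a 5' UTR of 100 to 500 bp was 55 bp on sequence 6, far from the other 6 sequences, which lay between -22.5 and 10 bp. The gap to the nearest of them was 0.581 of the whole range, above Dixon's critical value for 7 values. Medians were 136 bp in long-UTR genes and 81 bp in the ordinary class there. It was the only value to stand apart in 18 sets of 7 checked, and chance marks about 1 set in 20.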

How the results depend on the processing

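Of 107 alternative values, 65 kept the direction and the side of the 0.05 threshold; the upstream coding distance, whose direction the choice of genes largely fixes, is not counted. Coding length, 3' UTR length and downstream coding distance kept both in all alternatives except those that leave out 1 sequence. There each still had p = 0.0312, the smallest that the exact test allows with 6 sequences, and the adjusted p was 0.0417 without sequence 5 or 7 and 0.05 without any other. The same held for divergent neighbours. Coding introns per kb did not reach that smallest p and were no longer a call without any 1 of sequences 1 to 6 (exact permutation test, p = 0.0625). Leaving out each sequence gave differences of 512 to 614 bp for coding length, 162 to 193 bp for 3' UTR length, 1.89 to 2.7 points for an annotated 3' UTR, -0.156 to -0.101 coding introns per kb, -3.25 to 9.67 bp for 5' UTR introns, -7.08 to -5.43 points for divergent neighbours, and 1766.4 to 1928.5 and 579 to 615 bp for upstream and downstream coding distance. The reversal of -3.25 bp came without sequence 6. The share with a 3' UTR passed without sequence 5 (2.7 points), at a limit of 800 bp (2.13) and against all genes with a 5' UTR under 1000 bp (3.02). It also passed with the transcript of longest coding length (2.62), for genes with 1 transcript (2.67) and without overlap of other coding regions (2.7). At a limit of 1500 bp the difference in that share was 0.409 ± 6.69 points (SD, n = 7). It did not pass there (exact permutation test, adjusted p = 0.969). Coding introns per kb no longer passed at 1500 bp (-0.0803) or against all genes with a 5' UTR under 1000 bp (-0.0928). The same was so as a median over genes (-0.163) and without overlaps (-0.129). The difference reversed to 0.257 among genes with 1000 to 2000 bp of coding sequence. At 1500 bp the 5' UTR intron difference reversed to -9.43 bp and that in divergent neighbours to 1.83 points. The latter no longer passed against all genes with a 5' UTR under 1000 bp (-4.17) or for genes with 1 transcript (-6.16). The cause of these changes was not tested. Requiring a start codon record and a 3' UTR was not run for the share with a 3' UTR, which it sets to 100%. The alternatives without overlaps and with 1000 to 2000 bp of coding sequence were chosen after seeing the data. No paired analysis was possible by replicate number because the annotation belongs to no library; the classes were compared within each sequence throughout.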
